A study of Mus musculus with 13 samples.

Results

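Imprinted genes were described in Flk-1+ haemangioblasts and in haemogenic endothelium 1 (HE1) derived from 3 mouse ES cell lines. The 10 genes were Grb10, H19, Igf2r, Meg3 and Cdkn1c, which are expressed mainly from the maternal allele in most tissues, and Igf2, Dlk1, Peg3, Peg10 and Mest, which are expressed mainly from the paternal allele. They were found by gene symbol among the 45250 genes of the deposited expression table, and all 10 were among the 13802 genes tested. The set was chosen on the measured values of Grb10, which is very low in Tal1-/- Flk-1+ cells and uneven between WT libraries. The values of Grb10 in Flk-1+ cells are therefore given as a description, without a test. The question was whether the other 9 genes also differ between lines or between libraries of a line.

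Imprinted genes carry a DNA methylation mark that is set in the germ line, so that the copy from one parent is expressed and the other copy is silent. They lie in clusters that share a control region, and they act together on growth: IGF2 is a growth factor, IGF2R takes it to the lysosome, and GRB10 is an adaptor that restrains insulin and IGF receptor signalling. ES cell lines are known to gain or lose imprints during culture, and expression that is measured as the sum of both alleles cannot tell the parental copies apart.

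RNAseq was performed on WT (the CCB line), Lmo2-/- and Tal1-/- Flk-1+ cells isolated from embryoid bodies, with 3 libraries each, and on WT and Lmo2-/- HE1 cells obtained by further culture of Flk-1+ cells in blast medium, with 2 libraries each. The lines differ in the deletion of Lmo2 or of Tal1, whose products are partners in 1 transcription factor complex. No agent distinguished the genotypes within a stage. The culture that gave HE1 held VEGF, an interleukin and conditioned medium, which are not listed for the medium that gave Flk-1+ cells. A difference between stages therefore cannot be told apart from this change of medium. Each genotype was represented by 1 ES cell line, so that a difference between genotypes cannot be told apart from a difference between lines, and the libraries replicate the differentiation and not the line. Replicate numbers run from 0, as in the deposited table.

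Values are FPKM (fragments mapped per kilobase of transcript, relative to the size of the library). The files hold no fragment counts, so the depth of each library is not given here. The methods of the study state only a minimum number of reads that all libraries reached. The number of genes above 0 FPKM ranged from 11861 to 15641 in 12 libraries. In Lmo2-/- HE1 replicate 1 it was 9694, and there 191 of 4079 genes whose median over the libraries exceeded 10 FPKM were listed at 0. The deleted gene Tal1 had 22.0 to 37.4 FPKM in WT Flk-1+ cells and 2.74 to 3.41 FPKM in Tal1-/- Flk-1+ cells. Lmo2 had 21.6 to 30.8 FPKM in WT and 2.17 to 6.48 FPKM in Lmo2-/- Flk-1+ cells, but in HE1 it was 4.30 and 20.6 FPKM in WT against 6.42 and 0 FPKM in Lmo2-/-, so the genotypes overlapped in HE1, where they are known from the labels alone. Kdr, which encodes Flk-1, had at least 68.7 FPKM in every library. Lmo2-/- Flk-1+ replicate 1 stood apart from its group with 29.0 FPKM of Tal1, against 6.51 and 6.64 FPKM in replicates 0 and 2. Its deviations from the group mean, taken over all tested genes, correlated with those of WT Flk-1+ replicate 0 (r = 0.34, the highest of the pairs of Flk-1+ libraries from different lines). WT replicate 1 with Lmo2-/- replicate 2 (0.31) and WT replicate 2 with Lmo2-/- replicate 0 (0.30) came close to it. WT Flk-1+ replicate 0 and Lmo2-/- Flk-1+ replicate 1 are called the libraries that stood apart, a choice made after the data were seen. Differences of the 10 genes that rest on these 2 libraries are also given without both where they bear on a result.

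Grb10 lies on the minus strand of chromosome 11 (GRCm38, 11930508 to 12038683, GENCODE M21). RefSeq gives a pair of start sites with a promoter window of 300 bases each, from 250 bases before to 50 bases after the start. They are shown because Grb10 is the gene on which the set was chosen and because imprints are carried by CG dinucleotides, which are in capitals. Methylation was not measured, and a count of CG does not show whether a window carries an imprint. The upstream window at chr11:12037371-12037670 holds 45 CG, a number reached by 1.93% of the 32851 promoter windows of mouse genes. The downstream window at chr11:12027922-12028221 holds 9 CG, which 45.8% of windows reach or exceed.
Grb10 upstream start: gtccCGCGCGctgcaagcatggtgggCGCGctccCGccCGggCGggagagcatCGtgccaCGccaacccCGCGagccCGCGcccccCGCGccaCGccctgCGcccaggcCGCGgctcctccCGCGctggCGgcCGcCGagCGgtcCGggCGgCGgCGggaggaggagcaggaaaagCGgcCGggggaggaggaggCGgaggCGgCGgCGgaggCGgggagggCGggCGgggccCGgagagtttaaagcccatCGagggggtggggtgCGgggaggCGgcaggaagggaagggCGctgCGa
Grb10 downstream start: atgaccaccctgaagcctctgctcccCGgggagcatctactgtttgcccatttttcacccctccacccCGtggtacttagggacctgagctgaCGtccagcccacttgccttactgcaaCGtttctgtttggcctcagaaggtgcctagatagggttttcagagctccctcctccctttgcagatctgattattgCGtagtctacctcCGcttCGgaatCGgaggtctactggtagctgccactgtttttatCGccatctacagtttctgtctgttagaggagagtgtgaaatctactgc

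Peg3 lies on the minus strand of chromosome 7 (6703892 to 6730431), and the paternally expressed Usp29 starts 147 bases away on the plus strand (6730578 to 6967219), so that 1 promoter window at chr7:6730370-6730669 holds the starts of both genes. It is shown because both genes had their highest Flk-1+ values in Tal1-/- cells, and it holds 13 CG, which 37.9% of windows reach or exceed. The maternally expressed Zim1 of the same domain starts 33981 bases from the start of Peg3.
Peg3 and Usp29: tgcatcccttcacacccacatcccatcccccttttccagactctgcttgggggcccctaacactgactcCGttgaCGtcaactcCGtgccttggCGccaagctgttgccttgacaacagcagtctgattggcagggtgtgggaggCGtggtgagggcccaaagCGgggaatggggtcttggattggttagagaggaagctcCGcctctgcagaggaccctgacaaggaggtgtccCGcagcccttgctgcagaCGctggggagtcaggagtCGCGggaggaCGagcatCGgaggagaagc
RefSeq windows (GRCm38.p6) were at hand for 7 of the 10 genes, 14 windows in all. On both strands, none of the 14 held GCCATNTT, a core of the YY1 site, or AGATAA, a core of the GATA site, which 6.05% and 11.2% of all windows hold. The E-box CAGNTG was found in the window of Igf2r and in 1 window of Mest, against 51.4% of all windows.

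Grb10 had 119, 12.5 and 14.4 FPKM in the WT Flk-1+ libraries, 58.0, 128 and 76.8 FPKM in the Lmo2-/- libraries and 3.04, 0.182 and 0.619 FPKM in the Tal1-/- libraries. WT replicate 0 was within the range of the Lmo2-/- libraries, WT replicates 1 and 2 were below them, and the Tal1-/- libraries were below all others. The log2 difference of Tal1-/- from WT was -3.88, or -2.86 without both libraries that stood apart. From Lmo2-/- it was -5.41, or -5.10 without them. In bulk RNA, fewer cells that express a gene and less RNA per cell cannot be told apart.

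**Figure D1:**
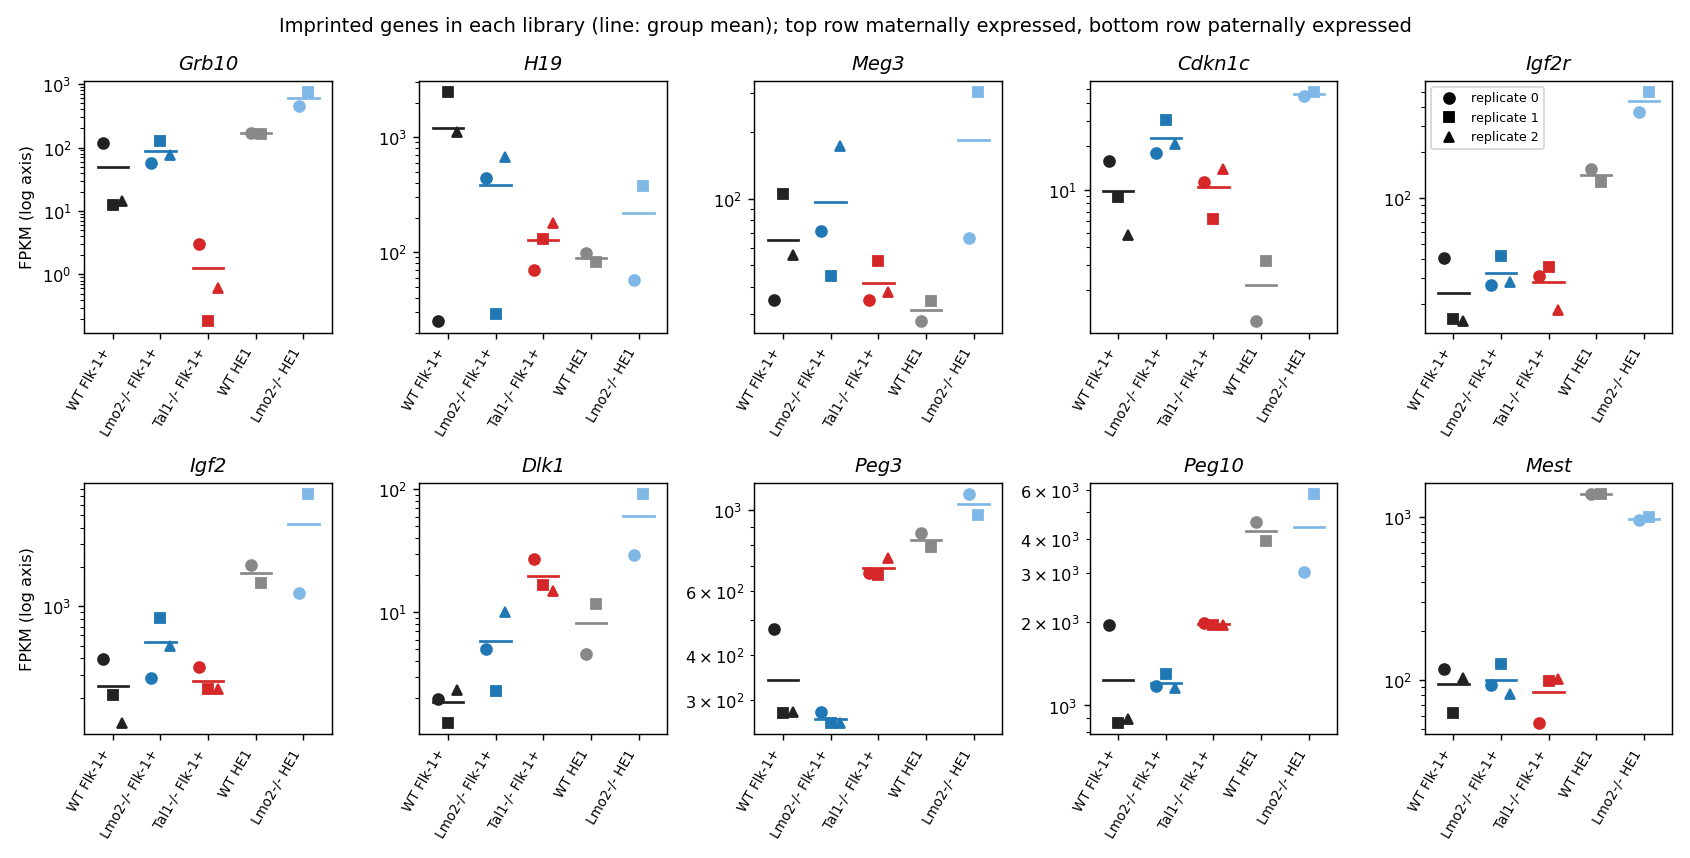
FPKM of the 10 imprinted genes on log axes, with 1 point per library, the shape giving the replicate number and the colour the group, and a line at the group mean. Grb10 is lowest in the 3 Tal1-/- libraries, H19 is at 25.0 and 28.9 FPKM in WT replicate 0 and Lmo2-/- replicate 1, and Dlk1 and Peg3 are higher in the Tal1-/- libraries than in any other Flk-1+ library.

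Of the 6 listed genes around Grb10 on chromosome 11, 4 were tested, and limma called 0 of them between the Flk-1+ lines, with 0% to 0.0145% of all tested genes called in these comparisons, so that the count is no result about the 4. A gene was called where its adjusted p (Benjamini-Hochberg, over all tested genes) was below 0.05 and 1 of the groups compared had a mean of more than 10 FPKM. Fignl1, a DNA repair ATPase gene, had 24.3, 16.6 and 19.99 FPKM in Tal1-/- Flk-1+ cells against 6.10 to 13.2 FPKM in WT and 7.03 to 13.2 FPKM in Lmo2-/-. Ikzf1, a lymphoid transcription factor gene, had 1.99 to 3.60 FPKM in WT and 0.354 to 0.964 FPKM in Lmo2-/- and was listed at 0 in all 3 Tal1-/- libraries. Ddc, Cobl, Zpbp and Vwc2 had at most 1.62 FPKM in any Flk-1+ library.

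The 5 genes most like Grb10 over the 9 Flk-1+ libraries, among 4199 other genes with a mean FPKM of at least 10, were Fbn2 (Pearson r = 0.949 on log2(FPKM + 1)), Capn6 (0.939), Ank2 (0.937), Insig1 (0.913) and Lss (0.912). The correlations are descriptions over 9 libraries that share the same 3 lines, and only 3 of these 5 were also among the first 5 by Spearman's rho. Fbn2, a microfibril gene, had 39.9, 16.8 and 16.3 FPKM in WT, 24.1, 32.2 and 24.1 FPKM in Lmo2-/- and 12.5, 12.2 and 9.54 FPKM in Tal1-/-. Like Grb10, it was high in WT replicate 0 and lowest in Tal1-/-, but over a narrower range. Among the imprinted genes of sufficient level, r with Grb10 ran from -0.757 for Peg3 to 0.639 for Cdkn1c.

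H19, a long non-coding RNA gene on chromosome 7 (142575529 to 142578143) that also hosts a microRNA, differed widely between libraries of the same line. It had 25.0, 2446 and 1116 FPKM in WT Flk-1+ cells, 439, 28.9 and 672 FPKM in Lmo2-/- and 70.6, 131 and 180 FPKM in Tal1-/-. The groups overlapped, because WT replicate 0 and Lmo2-/- replicate 1 had the lowest values of all 9. The limma difference was -1.79 ± 1.46 (SE) on the log2 scale for Tal1-/- against WT, with an adjusted p of 0.97. It was -3.79 ± 0.70 without both libraries that stood apart (limma adjusted p = 0.164). As these held the lowest H19 values, leaving them out was bound to enlarge the difference and to narrow its SE.

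Igf2, which lies 88673 bases from H19 by their starts and uses the same enhancers on the other parental chromosome, had 396, 210 and 127 FPKM in WT, 284, 822 and 497 FPKM in Lmo2-/- and 340, 231 and 232 FPKM in Tal1-/- Flk-1+ cells. It was highest in the library of each line in which H19 was lowest. The ratio of Igf2 to H19 FPKM was 15.8 in WT replicate 0 and 28.5 in Lmo2-/- replicate 1. It was 0.0857 and 0.114 in the other WT libraries, 0.648 and 0.740 in the other Lmo2-/- libraries and between 1.29 and 4.82 in the Tal1-/- libraries. In all 4 HE1 libraries it lay between 18.5 and 22.3.

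The same 2 libraries stood out at a second cluster. Airn, the paternally expressed antisense RNA of the Igf2r locus on chromosome 17, was named after its values were seen. It had 3.66 FPKM in WT replicate 0 and 3.56 FPKM in Lmo2-/- replicate 1, against 20.8 to 36.5 FPKM in the other WT and Lmo2-/- Flk-1+ libraries and 10.4, 28.0 and 27.1 FPKM in Tal1-/-. Igf2r had 40.3, 15.9 and 15.4 FPKM in WT, 26.9, 41.7 and 27.9 FPKM in Lmo2-/- and 30.6, 35.5 and 18.3 FPKM in Tal1-/-, and was highest in these same 2 libraries. The deposited row of Igf2r overlaps that of Airn, and the sources used here do not say whether fragments were counted by strand. Slc38a4, a paternally expressed amino acid transporter gene, had 135, 45.7 and 55.6 FPKM in WT and 90.0, 176 and 81.9 FPKM in Lmo2-/-, again highest in both libraries within their lines. The deviations of these 2 libraries over all tested genes were correlated (r = 0.34), and those of the other pairs named above nearly as much (0.31 and 0.30). That correlation covers genes that are not imprinted and does not by itself set the 2 libraries apart. The summed level of the 7 haemangioblast and endothelial markers, most of it Kdr, was also highest in these 2 libraries within their lines. It was 314 FPKM in WT replicate 0, against 142 and 151 FPKM in replicates 1 and 2. In Lmo2-/- Flk-1+ cells it was 199 FPKM in replicate 1, against 122 and 119 FPKM in replicates 0 and 2. The part that such shared deviations, or the cells behind these markers, have in the values of the imprinted genes was not tested.

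**Figure D2:**
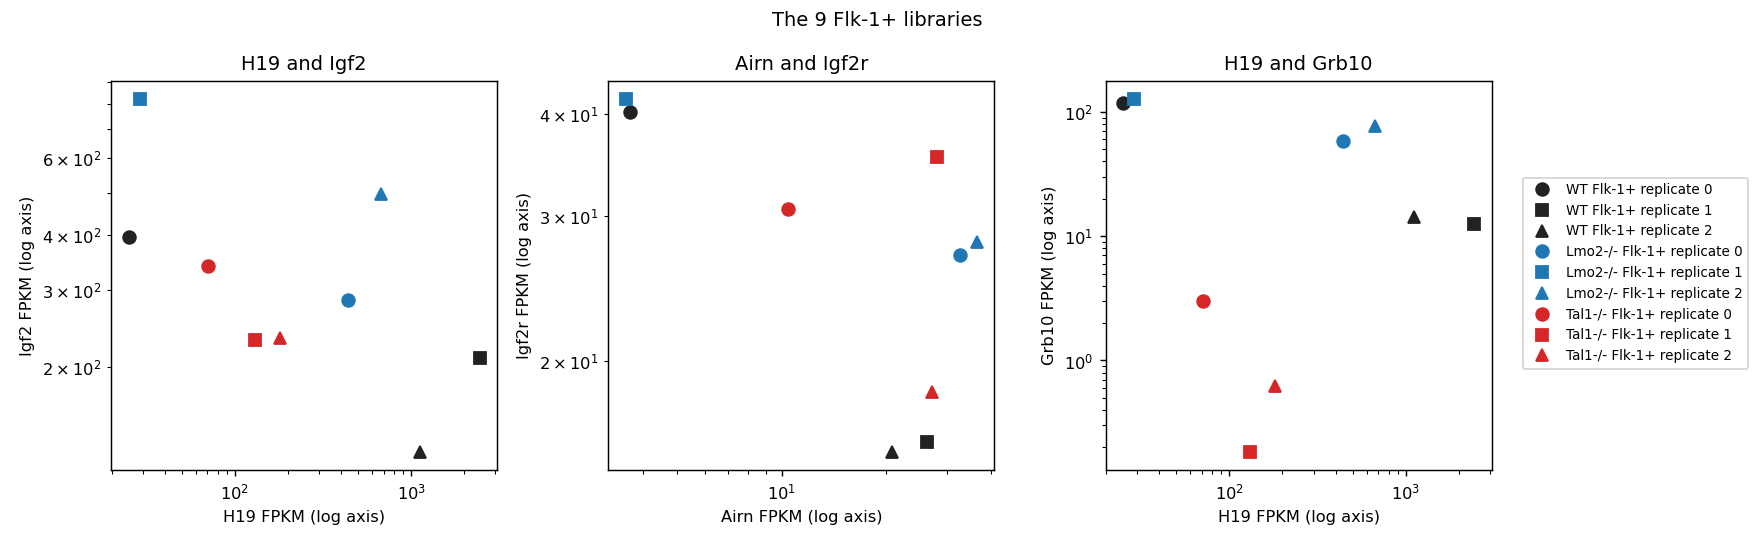
FPKM on log axes in the 9 Flk-1+ libraries for H19 and Igf2, for Airn and Igf2r and for H19 and Grb10, with colour giving the line and shape the replicate number. WT replicate 0 and Lmo2-/- replicate 1 lie together at the low end of H19 (25.0 and 28.9 FPKM) and of Airn (3.66 and 3.56 FPKM).

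The spread between libraries of a group was measured as the pooled SD of log2(FPKM + 1) over the 5 groups. It was 2.27 for H19, at percentile 99.3 of the 4997 genes with a mean FPKM of at least 10, and Igf2 (0.863) and Meg3 (0.847) followed at percentiles 84.0 and 83.1. That of Grb10, 1.05, restates the uneven WT values on which the set was chosen. Peg3 was among the most even genes, with 0.232 at percentile 2.14, and Mest (0.374) and Peg10 (0.411) were below the median of 0.519 as well. These positions depended on the scaling: under quantile normalization Peg3 had an SD of 0.549, at percentile 58.7, and Peg10 one of 0.707, at percentile 78.7. Of the 9 genes other than Grb10, 5 were above the median, and 7 under quantile normalization. Without both libraries that stood apart H19 had an SD of 0.953, at percentile 86.7, a fall that was bound to follow as they held its lowest Flk-1+ values.

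**Figure D3:**
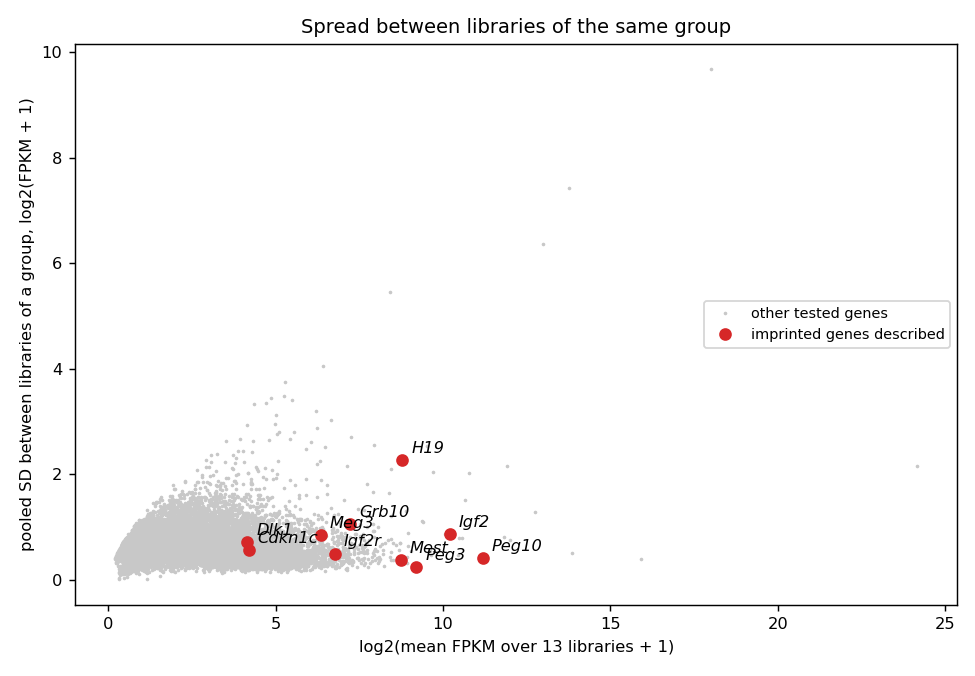
Pooled SD of log2(FPKM + 1) between libraries of the same group against the log2 mean FPKM over the 13 libraries, for all tested genes (grey) and the 10 imprinted genes (red). H19 has an SD of 2.27 and Peg3, at a similar mean level, has 0.232 on the deposited scale and 0.549 under quantile normalization (not drawn).

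Between the lines, the other 9 genes were compared by limma over all 13 libraries. In Lmo2-/- against WT Flk-1+ cells 0 of 9 were called, as were 0% of all tested genes, although 307 of these had p below 0.05 before adjustment. The deleted gene Lmo2 was itself not called, so a count of 0 does not show that the lines are alike. Of the 9 genes 7 had a higher and 2 a lower mean, with a median log2 difference of 0.47 against -0.01 over all tested genes. Cdkn1c, which encodes the cyclin-dependent kinase inhibitor p57, had 15.8, 8.90 and 4.81 FPKM in WT and 17.8, 30.3 and 20.5 FPKM in Lmo2-/-. It was the only 1 of the 9 whose groups did not overlap, which held for 8.21% of all tested genes, with a limma difference of 1.24 ± 0.45 (SE, log2) and an adjusted p of 1.00. Without both libraries that stood apart again 0 of 9 were called, and the difference of Cdkn1c was 1.41 ± 0.50. That of Igf2 was 1.15 ± 0.61 with all libraries and 1.20 ± 0.68 without both.

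In Tal1-/- against WT Flk-1+ cells again 0 of 9 genes were called by limma, with 0% of all tested genes called and 843 of them at p below 0.05 before adjustment. Here too the deleted gene, Tal1, was not called. Dlk1 and Peg3 were higher in every Tal1-/- library than in every WT library, while groups did not overlap for 12.6% of all tested genes. Dlk1, which encodes a Notch-like transmembrane protein, lies on chromosome 12 (109452823 to 109463336) and had 1.98, 1.25 and 2.31 FPKM in WT, 5.05, 2.29 and 10.1 FPKM in Lmo2-/- and 27.3, 16.7 and 15.0 FPKM in Tal1-/-. The lowest Tal1-/- library was above the highest library of either other line. The limma difference from WT was 2.83 ± 0.54 (SE, log2) with an adjusted p of 0.141, so that it did not pass. It passed with array weights, which give less weight to uneven libraries (adjusted p = 0.0407). The difference was 2.87 ± 0.58 without both libraries that stood apart (limma adjusted p = 0.180).

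Peg3, a zinc finger protein gene, had 470, 276 and 278 FPKM in WT, 278, 260 and 260 FPKM in Lmo2-/- and 673, 663 and 740 FPKM in Tal1-/-. All 3 Tal1-/- libraries were above the other 6, and WT replicate 0 was the highest of those. The limma difference was 1.06 ± 0.29 (SE, log2) from WT and 1.38 ± 0.29 from Lmo2-/-, with adjusted p of 0.439 and 0.293. Without both libraries that stood apart they were 1.31 and 1.36, with adjusted p of 0.164 and 0.275.

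Of the Peg3 domain, Usp29 and Zim1 are named because their differences were among the largest of the wider lists of imprinted genes, so that their values are a description. Usp29, a ubiquitin peptidase gene expressed from the paternal allele like Peg3, had 2.11, 3.71 and 2.34 FPKM in WT, 2.02, 2.96 and 2.45 FPKM in Lmo2-/- and 7.08, 9.40 and 6.33 FPKM in Tal1-/-. The maternally expressed Zim1, a zinc finger gene, had 6.94, 3.30 and 5.32 FPKM in WT, 8.06, 4.05 and 8.10 FPKM in Lmo2-/- and 0.789, 1.04 and 2.79 FPKM in Tal1-/-. Neither gene overlapped between Tal1-/- and the other lines. Neither passed in limma, with log2 differences from WT of 1.22 ± 0.44 (SE) and -1.32 ± 0.42 and adjusted p of 0.685 and 0.605.

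Between Tal1-/- and Lmo2-/- Flk-1+ cells, whose libraries are those of the comparisons above, limma called 0 of 9 genes, against 0.0145% of all tested genes. Libraries did not overlap for 4 of the 9, of which Dlk1, Peg3 and Peg10 were higher in Tal1-/- and Cdkn1c was lower, against 13.3% of all tested genes. Peg10, a gene derived from a retrotransposon, had 1174, 1295 and 1160 FPKM in Lmo2-/- and 1979, 1957 and 1946 FPKM in Tal1-/-, a limma difference of 0.70 ± 0.42 (SE, log2) with an adjusted p of 0.902. Without both libraries that stood apart the differences were 0.75 for Peg10, 1.29 for Dlk1 and -0.88 for Cdkn1c, and 0 of 9 were called. In WT Peg10 had 1947, 864 and 892 FPKM, so that WT replicate 0 was level with Tal1-/- and the others were lower. The moderated F test of any difference between the 3 lines called 0 of the 9 genes and 0% of all tested genes, with the lowest limma adjusted p among the 9 for Dlk1 (0.359).

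Meg3, the non-coding RNA of the Dlk1 cluster, had 34.9, 106 and 55.9 FPKM in WT, 71.2, 44.8 and 173 FPKM in Lmo2-/- and 35.0, 52.2 and 38.0 FPKM in Tal1-/- Flk-1+ cells. All 3 lines overlapped, although Dlk1, whose start lies 88178 bases away, was highest in Tal1-/-. Mest, a hydrolase-like gene on chromosome 6, had 117, 62.8 and 102 FPKM in WT, 92.6, 125 and 82.0 FPKM in Lmo2-/- and 54.2, 97.5 and 101 FPKM in Tal1-/-. Its levels did not order the lines, with limma differences from WT of 0.11 ± 0.33 and -0.17 ± 0.33 (SE, log2).

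The wider lists of imprinted genes held 24 rows of paternally and 22 rows of maternally expressed genes, of which 20 and 17 were tested. For these genes, here and throughout, paternally or maternally expressed names the list in which a gene was placed. The lists do not say in which tissues a gene is imprinted, and the allele expressed in these cells was not measured. Limma called 0 of them in any comparison of the Flk-1+ lines, in which 0% to 0.0145% of all tested genes were called. In Tal1-/- against WT, 13 paternally expressed genes were higher and 7 lower, with a median log2 difference of 0.50, and 9 maternally expressed genes were higher and 8 lower, with a median of 0. Libraries did not overlap for 6 paternally expressed genes that were higher in Tal1-/- and 1 that was lower, and for 3 maternally expressed genes, all lower in Tal1-/-, against 12.6% of all tested genes in either direction. Sgce, which starts 99 bases from Peg10, had 14.9, 8.35 and 7.75 FPKM in WT and 18.6, 18.7 and 16.3 FPKM in Tal1-/-. Snrpn, which shares its row with Snurf, had 47.5, 36.4 and 72.5 FPKM in WT and 76.96, 73.5 and 96.7 FPKM in Tal1-/-. Gnas had 171, 169 and 173 FPKM in WT and 94.8, 149 and 111 FPKM in Tal1-/-. Sgce, Snrpn and Gnas were named after their values were seen. The genes named by size were, for Lmo2-/- against WT, Osbpl5 (1.37 ± 0.64, SE, log2), Slc38a4 (0.63 ± 0.43) and Zrsr1 (-0.59 ± 0.59), and for Tal1-/- against WT also Slc38a4 (1.04 ± 0.43). Those of Slc38a4 were 0.76 ± 0.34 and 1.51 ± 0.31 without both libraries that stood apart, and neither was called. Between Tal1-/- and Lmo2-/- they were Zim1 (-1.64 ± 0.42), Usp29 (1.30 ± 0.44) and Osbpl5 (-1.18 ± 0.64).

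A list of 16 genes held factors that keep imprints, such as the zinc finger proteins ZFP57 and ZFP445, the corepressor TRIM28 and the maintenance methyltransferase DNMT1. It also held other factors of DNA methylation and chromatin, among them DNMT3A, DNMT3B, EZH2 and the TET enzymes. Of its 14 tested genes 0 were called in each comparison of the Flk-1+ lines, against 0% to 0.0145% of all tested genes. Zfp57 had 11.1 to 19.7 FPKM in WT, 16.5 to 21.7 FPKM in Lmo2-/- and 4.72, 17.6 and 22.4 FPKM in Tal1-/-. Dnmt1 had 40.3 to 57.2 FPKM in WT and 27.9 to 38.8 FPKM in Tal1-/-, which did not overlap, as was so for 2 of the 14 genes and 12.6% of all tested genes. The insulin-like growth factor pathway, with receptors, binding proteins and substrates, also gave 0 calls among 12 genes.

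Fibroblast markers, which feeder cells would bring, were low in Flk-1+ cells. The ES cells had been maintained on embryonic fibroblasts and passaged without them before differentiation. The summed level of the 8 markers was 8.69 to 16.3 FPKM in WT, 26.4 to 36.2 FPKM in Lmo2-/- and 30.4 to 47.9 FPKM in Tal1-/-, most of it Col1a1, and Lum was listed at 0 in all 9 libraries. Of undifferentiated ES cell markers, Sox2 was at or below 0.558 FPKM and Zfp42 at or below 0.998 FPKM, while the summed level of the 7 markers was 58.4 to 79.0 FPKM in WT, 25.4 to 47.6 FPKM in Lmo2-/- and 27.2 to 50.4 FPKM in Tal1-/-. The sum followed Tdgf1, with means of 51.6, 24.1 and 19.1 FPKM in these lines, and the 7 markers did not move together. Means of Tdgf1 and Pou5f1 were highest in WT, those of Nanog, Sox2 and Zfp42 in Tal1-/- and those of Klf4 and Esrrb in Lmo2-/-. Endoderm markers reached 20.02 FPKM in sum in Tal1-/- replicate 0, mostly Apob, and at most 3.19 FPKM in the other Flk-1+ libraries. The part of such cells in the differences between lines was not tested.

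Mest, Igf2r, Igf2, Peg3 and Peg10 rose in the step from Flk-1+ cells to HE1 in both genotypes, and Dlk1 rose in Lmo2-/-. In WT, limma called 5 of 9 genes, all higher in HE1, against 6.98% of all tested genes. In Lmo2-/- it called 6 of 9, all higher in HE1, against 19.6%. A call needs a group mean above 10 FPKM, and 4997 of the 13802 tested genes had a mean of at least 10 FPKM over the libraries. The shares over all tested genes are therefore lower than those among genes at the level of most of the 9. The median log2 difference of the 9 genes was 1.58 in WT and 1.96 in Lmo2-/-, against 0.11 and 0.30 over all tested genes. Without both libraries that stood apart it called 6 in each genotype, and in WT the gene added was H19, which was lower in HE1 (-4.19 ± 0.77, SE, log2, limma adjusted p = 0.00866). The WT library left out had the lowest H19 value of its group, so leaving it out was bound to enlarge this difference. Of 7 endothelial and haemangioblast markers, 4 were called higher in WT HE1 and 5 in Lmo2-/- HE1, while Etv2 had lower values in both (-1.74 and -2.37, log2), with no group mean above 10 FPKM. Of 8 fibroblast markers, 1 was called higher in WT HE1 and 5 in Lmo2-/- HE1, where their median log2 difference was 2.62 against -0.06 in WT. The part of such cells in the rise of the imprinted genes was not tested.

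Mest rose the most in WT. It had 1373 and 1374 FPKM in WT HE1 against 62.8 to 117 FPKM in WT Flk-1+ cells, a log2 difference of 3.90 ± 0.37 (SE, limma adjusted p = 4.56e-05), and 954 and 992 FPKM in Lmo2-/- HE1, 3.30 ± 0.37 above Lmo2-/- Flk-1+ cells (limma adjusted p = 0.00011). The lowest HE1 library of either genotype, at 954 FPKM, was above the highest Flk-1+ library, at 125 FPKM. The deposited row of Mest overlaps that of Copg2, and the sources used here do not say whether fragments were counted by strand. Copg2 had a mean of 5.24 FPKM in WT Flk-1+ cells and 6.43 FPKM in WT HE1.

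Igf2r rose to 155 and 128 FPKM in WT HE1, by 2.65 ± 0.44 (SE, log2, limma adjusted p = 0.0019), and to 369 and 495 FPKM in Lmo2-/- HE1, by 3.72 ± 0.44 (limma adjusted p = 0.00015). Its ligand gene Igf2 rose with it, to 2072 and 1512 FPKM in WT HE1, by 3.005 ± 0.68 (limma adjusted p = 0.0134), and to 1277 and 7269 FPKM in Lmo2-/- HE1, by 2.64 ± 0.68 (limma adjusted p = 0.0129). Lmo2-/- HE1 replicate 1 had the highest Igf2 of all 13 libraries. Without it the difference in Lmo2-/- was 1.39 with a limma adjusted p of 0.174, and in WT the call was lost without WT HE1 replicate 0 or 1 or without WT Flk-1+ replicate 2 (limma adjusted p of 0.133, 0.0669 and 0.0555).

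Peg3 had 862 and 789 FPKM in WT HE1, a rise of 1.32 ± 0.33 (SE, log2, limma adjusted p = 0.0235), and 1106 and 972 FPKM in Lmo2-/- HE1, a rise of 1.96 ± 0.33 (limma adjusted p = 0.00125). Peg10 had 4588 and 3912 FPKM in WT HE1, a rise of 1.89 ± 0.47 (limma adjusted p = 0.0227), and 3033 and 5783 FPKM in Lmo2-/- HE1, a rise of 1.79 ± 0.47 (limma adjusted p = 0.0143). Both were above every Flk-1+ library of the same genotype. In WT neither call was kept without 1 of the HE1 libraries or without WT Flk-1+ replicate 1 or 2, with limma adjusted p of 0.0799 to 0.186 for Peg3 and 0.0832 to 0.178 for Peg10. In Lmo2-/- that of Peg10 was lost without Lmo2-/- HE1 replicate 1 (limma adjusted p = 0.116).

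Dlk1 had 4.57 and 11.7 FPKM in WT HE1 and 29.3 and 91.3 FPKM in Lmo2-/- HE1. It rose in Lmo2-/- by 3.13 ± 0.61 (SE, log2, limma adjusted p = 0.0028) and was not called in WT, where the difference was 1.58 ± 0.61 (limma adjusted p = 0.127). With all libraries H19 and Meg3 were called in neither genotype. H19 had 97.6 and 81.8 FPKM in WT HE1 and 57.2 and 378 FPKM in Lmo2-/- HE1, and Meg3 had 27.9 and 34.7 FPKM against 66.4 and 302 FPKM. Grb10, given without a test, had 167 and 166 FPKM in WT HE1 and 451 and 737 FPKM in Lmo2-/- HE1, each above every Flk-1+ library of its genotype.

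**Figure D4:**
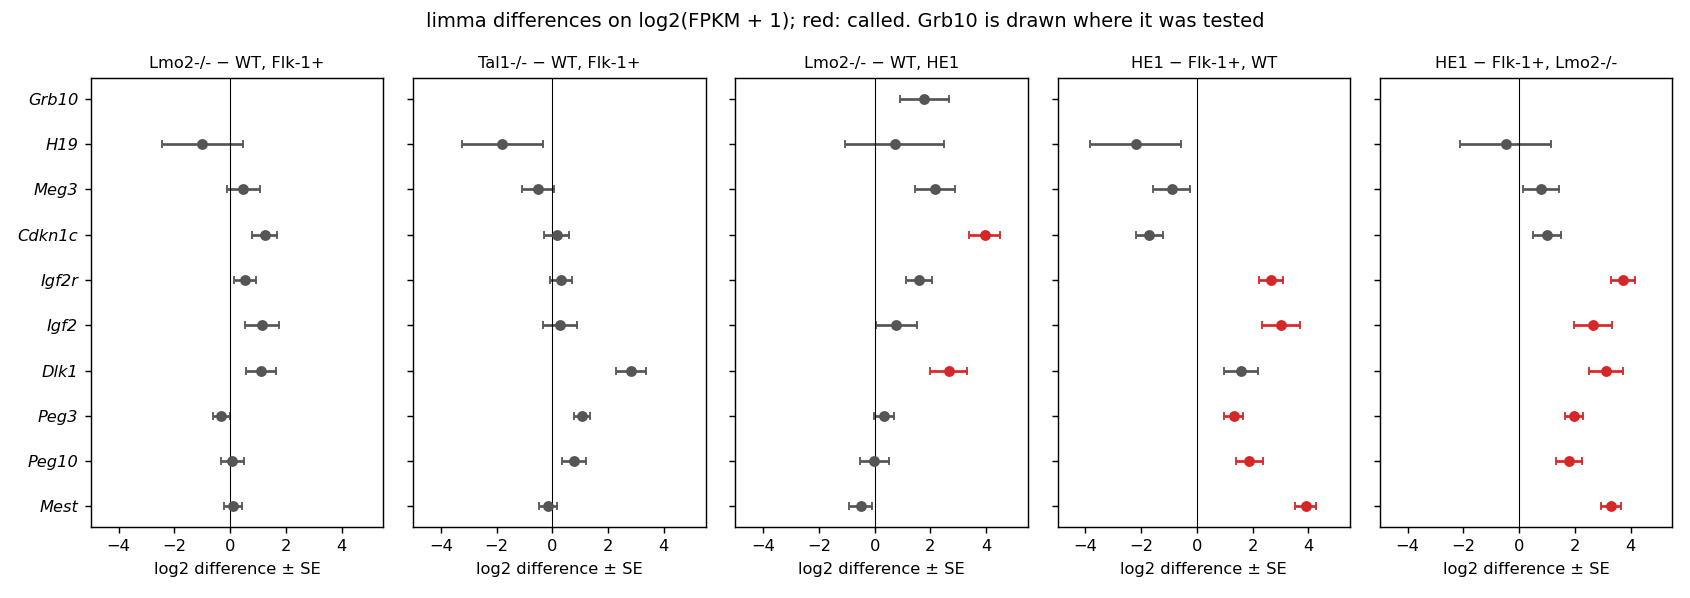
Log2 differences with their SE from limma for the imprinted genes in 5 comparisons, with called genes in red and Grb10 drawn only where it was tested. No gene is called between the Flk-1+ lines shown, 2 are called in Lmo2-/- against WT HE1, and 5 and 6 are called in the step to HE1.

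Within HE1, limma called 2 of the 10 genes in Lmo2-/- against WT, both higher, against 3.01% of all tested genes. Cdkn1c had 1.22 and 3.16 FPKM in WT HE1 and 44.7 and 47.2 FPKM in Lmo2-/- HE1, a log2 difference of 3.95 ± 0.55 (SE, limma adjusted p = 0.0023). Both Lmo2-/- libraries were above all other libraries of the study, and both WT libraries were below every Flk-1+ library. The call did not hold in a fit of the HE1 libraries alone or with array weights (limma adjusted p of 0.395 and 0.0540).

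Dlk1, with the values above, differed by 2.65 ± 0.66 (SE, log2, limma adjusted p = 0.0401). Its call was close to the threshold and was lost when any 1 of 10 of the 13 libraries was left out, WT HE1 replicate 0 or 1 and Lmo2-/- HE1 replicate 1 among them (limma adjusted p of 0.255, 0.0692 and 0.274). Without both Flk-1+ libraries that stood apart Dlk1 did not pass (limma adjusted p = 0.0528) and Igf2r did (0.0398). The difference of Igf2r stayed at 1.60 and its SE fell from 0.48 to 0.35, as the libraries left out held its highest Flk-1+ values. Grb10 (1.79 ± 0.87), Igf2r (1.60 ± 0.48) and Meg3 (2.15 ± 0.72) were higher in both Lmo2-/- libraries than in both WT libraries but did not pass (limma adjusted p of 0.263, 0.0777 and 0.108). The SE of Grb10 came from the spread over all 13 libraries, which holds the uneven WT Flk-1+ values that chose the set. Its SD (log2) was 1.77 in WT Flk-1+, 0.0036 in WT HE1 and 0.50 in Lmo2-/- HE1. Its test in HE1 is therefore not free of that choice. Without both Flk-1+ libraries that stood apart its difference was 1.79 ± 0.52 (limma adjusted p = 0.0973). Libraries did not overlap for 7 of the 10 genes, as for 39.7% of all tested genes, and the median log2 difference was 1.19 against 0.15. In the authors' pooled FPKM, Cdkn1c had 2.38 in WT and 38.0 in Lmo2-/- HE1, and Dlk1 had 8.25 and 21.7. There Peg3 (651 and 561), Peg10 (3350 and 1947) and Mest (1302 and 629) were lower in Lmo2-/-, and the other genes were higher.

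In this comparison limma called 3.01% of all tested genes, 297 of them higher and 118 lower in Lmo2-/- HE1. Of the wider lists Zim1 alone was called, with 9.25 and 13.6 FPKM in WT HE1 and 58.5 and 60.3 FPKM in Lmo2-/- HE1 (2.30 ± 0.52, SE, log2, limma adjusted p = 0.0253). In the growth factor pathway 3 of 12 genes were called higher in Lmo2-/- HE1, the binding protein genes Igfbp2 and Igfbp5 and the receptor substrate gene Irs1, and 1 was called lower. That was the growth factor gene Igf1, with 82.5 and 40.7 FPKM in WT HE1 and 3.04 and 0.746 FPKM in Lmo2-/- HE1 (-4.47 ± 0.55, SE, log2, limma adjusted p = 0.0016). Igfbp5 had 0.427 and 0.521 FPKM in WT HE1 and 15.8 and 63.0 FPKM in Lmo2-/- HE1 (4.48 ± 0.70, limma adjusted p = 0.0040).

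Fibroblast markers moved with these genes. Of 8 tested, Col1a1, Col3a1, Pdgfrb and Postn were called higher in Lmo2-/- HE1, with 3.01% of all tested genes called. The summed level of the list was 38.1 and 31.5 FPKM in WT HE1 against 222 and 830 FPKM in Lmo2-/- HE1, with Thy1 at 0 in all 4 libraries. Endothelial and haemangioblast markers were at a similar sum, 1017 and 1017 FPKM against 906 and 927 FPKM, but single markers moved either way. Kdr (mean 255 against 159 FPKM), Cdh5 (438 against 323 FPKM) and Etv2 were lower in both Lmo2-/- libraries. Pecam1 (116 against 156 FPKM), Tek (122 against 165 FPKM) and Tal1 were higher in both, and Kit overlapped. Limma called 0 of these 7, and libraries did not overlap for 39.7% of all tested genes. The part of the mesenchymal genes in the higher levels of Cdkn1c, Dlk1 and Zim1 was not tested.

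In the step to HE1 the wider lists had 2 of 20 paternally expressed genes called in WT, Plagl1 higher and Nnat lower, and 3 of 17 maternally expressed genes, Ppp1r9a and Osbpl5 higher and Phlda2 lower, against 6.98% of all tested genes. Plagl1, a zinc finger gene, had 39.9 and 50.6 FPKM in WT HE1 against 1.19 to 1.81 FPKM in WT Flk-1+ cells (4.26 ± 0.58, SE, log2, limma adjusted p = 0.0005). Phlda2, a pleckstrin homology domain gene, had 35.2, 19.7 and 12.0 FPKM in WT Flk-1+ cells and was listed at 0 in both WT HE1 libraries. In Lmo2-/- 5 paternally expressed genes were called, Plagl1, Zdbf2, Impact, Ndn and Inpp5f, and 3 maternally expressed genes, Ppp1r9a, Ube3a and Zim1, all higher in HE1, which is 5 of 20 and 3 of 17 against 19.6% of all tested genes. Plagl1 had 72.0 and 93.4 FPKM in Lmo2-/- HE1 against 0.907 to 4.48 FPKM in Lmo2-/- Flk-1+ cells. Of the 14 tested genes of the list of imprint, DNA methylation and chromatin factors, Tet2 and Tet3 were called higher and Dnmt3b lower in WT HE1. In Lmo2-/- HE1 Tet2, Tet3, Dnmt3a, Smchd1 and Ctcf were called higher. The shares of all tested genes were 6.98% and 19.6%.

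The interaction of genotype and stage, which asks whether the step to HE1 differed between WT and Lmo2-/-, called 0 of 9 genes, against 0.348% of all tested genes. The largest value among them was that of Cdkn1c, 2.71 ± 0.71 (SE, log2, limma adjusted p = 0.128). Its difference from Flk-1+ cells was -1.70 in WT, where both HE1 libraries were below the Flk-1+ libraries, and 1.01 in Lmo2-/-, where both were above them. Neither step was called (limma adjusted p of 0.0483 in WT, with no group mean above 10 FPKM, and 0.155 in Lmo2-/-). Under quantile normalization the value in Lmo2-/- was -0.0331. In the growth factor pathway the interaction was called for Igf1 (-3.70 ± 0.71) and Igfbp5 (4.89 ± 0.90, limma adjusted p of 0.0395 and 0.0330).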

How the data were processed

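RNAseq of 13 libraries in 5 groups was used. Libraries were made with a stranded mRNA kit. The authors aligned reads with TopHat. They deposited the FPKM of each library, made with Cuffnorm, and pooled FPKM of each condition, made with Cuffdiff. The submitters' notes name TopHat2 2.0.9, Bowtie 1.1.2, Cufflinks 2.0.0, Cuffdiff 2.0.1 and the build mm10, which is GRCm38. The deposited comparison table holds the authors' Cuffdiff fold changes, p-values and q-values, and was not used. Every column of per-library values was used, so 0 were left out.

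Genes with a locus over 200 bp and at least 1 FPKM in at least 2 libraries (13802 of 45250) were fitted by limma 3.58.1 in R 4.3.3 on log2(FPKM + 1) with a mean-variance trend, with group as the factor and the spread shared over all 13 libraries. Log2 differences are on this scale, which understates the change of low genes. Tests were two-sided, with Benjamini-Hochberg adjustment over all tested genes. A gene was called at an adjusted p below 0.05 with a mean above 10 FPKM in a group compared. Tables and figures were made in Python 3.11.15 with numpy 2.4.6, pandas 2.3.3 and matplotlib 3.10.9. The fit was tested on simulated data. Without fragment counts no counting interval can be given.

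The genes and lists were chosen with earlier results of these data known. Named genes were the 10, listed genes called in a comparison, the 3 of the wider lists with the largest difference in each comparison of Flk-1+ lines, and the 5 most like Grb10. Of 26 paternally expressed genes listed, Zfp264 had no row and Snrpn and Snurf share 1. Alternatives were a pseudocount of 0.1, no filter or a filter of at least 10 FPKM, quantile normalization, the groups compared alone, array weights, a replicate block, no FPKM criterion, each library left out and, chosen after seeing the data, 2 libraries left out together. ChIP and DNase data were not analysed here.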

Additional observations from a re-analysis of the deposited data

Results flagged for a closer look

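For 2 imprinted genes the values of the step from Flk-1+ cells to HE1 were unlike in WT and Lmo2-/-, and neither was a called difference. For Cdkn1c every WT HE1 library was below every WT Flk-1+ library, and every Lmo2-/- HE1 library was above every Lmo2-/- Flk-1+ library. The interaction was 2.71 on the log2 scale and did not pass in limma (adjusted p = 0.128), and under quantile normalization the step in Lmo2-/- was -0.0331. Klf14, a maternally expressed transcription factor gene without introns, was listed at 0 in 11 libraries and had 3.90 and 10.6 FPKM in Lmo2-/- HE1. Its interaction was 2.91 with a limma adjusted p of 0.0330, but its group means stayed below 10 FPKM, so that it was not among the calls, and in both genotypes the Flk-1+ libraries were at 0.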

How the results depend on the processing

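Counts of called genes moved with the processing, by limma throughout. In Lmo2-/- against WT HE1 the count of 2 was 1 with a pseudocount of 0.1, without a filter on low values, with quantile normalization or with the replicate block, and 0 in a fit of the groups compared alone or with array weights. Leaving out 1 library gave 1 to 4, the last without Lmo2-/- HE1 replicate 0, when Meg3 and Igf2r passed. In the WT step to HE1 the count of 5 was 3 in a fit of the groups compared alone or with the replicate block, and 2 to 5 with 1 library left out. In the Lmo2-/- step the count of 6 was 3 with array weights. The interaction gave 0 to 1 with 1 library left out, Cdkn1c passing without Lmo2-/- HE1 replicate 0. Tal1-/- against WT Flk-1+ gave 1, Dlk1, with array weights. The causes were not tested, apart from the smaller number of samples in the fits with fewer libraries. Under quantile normalization the sign was reversed for Peg3 in Lmo2-/- against WT HE1 (-0.133) and for Cdkn1c in the Lmo2-/- step (-0.0331). Mest and Igf2r kept their calls in both steps under every alternative run, and the counts for the other comparisons of Flk-1+ lines stayed at 0.

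Of the 9 genes other than Grb10, 5 were more spread than the median gene, 4 to 6 with 1 library left out, 4 without both libraries that stood apart and 7 under quantile normalization. Replicate numbers were not found to pair the libraries: in Flk-1+ cells, deviations of WT and Lmo2-/- libraries with the same number correlated with r of -0.184 to -0.0147, those of WT and Tal1-/- with r of 0.0741 to 0.169, and those of Lmo2-/- and Tal1-/- with r of -0.0578 to 0.0234. The block changed no call other than those of Dlk1 in HE1 and of Peg3 and Peg10 in the WT step.

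Fragment counts of the libraries are not given, HE1 has 2 libraries a group and each genotype is 1 line. The listed zeros of Lmo2-/- HE1 replicate 1 limit values of low genes there. Its median over the tested genes was 7.45 FPKM, against 5.48 to 5.68 FPKM in the other HE1 libraries. Higher values in this library are therefore not confined to the imprinted genes or to low genes.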

Other observations

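The deviations of Flk-1+ libraries from their group means, over all tested genes, were alike across WT and Lmo2-/- in 3 pairs of unlike replicate numbers: WT replicate 0 with Lmo2-/- replicate 1 (r = 0.34), WT replicate 1 with Lmo2-/- replicate 2 (0.31) and WT replicate 2 with Lmo2-/- replicate 0 (0.30). H19 ordered the libraries in the same way, with the lowest values in the first pair (25.0 and 28.9 FPKM) and the highest in the second (2446 and 672 FPKM). The pairs were found from the same values, so no test was run on them. Within them Igf2 was higher in Lmo2-/- each time (822 against 396, 497 against 210 and 284 against 127 FPKM), as were Meg3, Igf2r and Dlk1. Peg3 was lower each time, and H19, Peg10 and Mest went either way. Cdkn1c was higher each time as well, which any pairing would give because its groups did not overlap.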
